A study of Homo sapiens with 12 samples.

Results

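Microexons are exons of at most 30 nt, and those described here were taken from the skipped exon events of 293A-TOA cells in which SFSWAP, UPF1 or both had been knocked down. An exon entered when an event table listed it with a length of at most 30 nt and its inclusion and skipping reads averaged 10 or more over the libraries, and of several events on the same exon the event with most reads was used. The table of the siNT and siSFSWAP libraries gave 1716 microexons among 80074 exons (2.14%), and the table of the siNT/siUPF1 and siSFSWAP/siUPF1 libraries gave 1685 among 77178 (2.18%). Together they hold 2418 microexons of 106970 exons, and 983 are in both tables.

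The libraries are polyA RNA from 293A-TOA cells, a human embryonic kidney line also labelled HEK293A-TOA, and there are 3 per group. All 12 libraries came from cells that spent their last 6 hr in 1 μM TG (Thiamet-G), an inhibitor of the enzyme that removes O-GlcNAc, so no group here is without TG. The siNT cells received non-target siRNA, and the siSFSWAP cells 40 nM of a mix of 2 siRNAs against SFSWAP. The siNT/siUPF1 and siSFSWAP/siUPF1 cells also received 30 nM siRNA against UPF1. A day after transfection all cells were passaged, and they were harvested 4 days later. Knockdown by siRNA is partial: SFSWAP reads at skipped exon events, scaled to the depth of the library (RPM), were 114 to 127 in siNT and 37.4 to 59.2 in siSFSWAP, 66.2 to 80.8 in siNT/siUPF1 and 20.3 to 40.0 in siSFSWAP/siUPF1. UPF1 reads were 285 to 434 RPM without siUPF1 and 49.7 to 120 with it. SFSWAP reads were thus also fewer in siNT/siUPF1 than in siNT. Each library held 25938092 to 40637076 reads at skipped exon events, of which 404936 to 687841 fell on the microexon events.

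A microexon is hard to define for the splicing machinery, because factors bound at its 3′ and 5′ splice sites have almost no exon between them, and many such exons need enhancer sequences in the intron before them. In neurons a dedicated program led by SRRM4 includes a large set of them, often in proteins of vesicle traffic, the cytoskeleton and signalling, and many keep the reading frame. SFSWAP is an SR-like protein with domains also found in splicing factors, and UPF1 is the helicase at the centre of nonsense-mediated decay, which removes transcripts with premature stop codons.

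The following sequences are a choice of coding microexons from 6 to 27 nt that fell upon SFSWAP knockdown and whose levels are given below, and they show how little exon lies between the splice sites. All were lower with normal UPF1, and all but MYO5A were also called lower with UPF1 depleted. The exon is in capitals, and the lower case letters are 25 nt of the intron before it and 10 nt of the intron after it, 5′ to 3′ on the sense strand of GRCh38 (hg38).
KIF3A: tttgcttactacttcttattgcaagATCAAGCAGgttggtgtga
MYO5A: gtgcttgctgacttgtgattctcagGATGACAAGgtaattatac
PITPNA: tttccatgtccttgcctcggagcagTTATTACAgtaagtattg
PHB2: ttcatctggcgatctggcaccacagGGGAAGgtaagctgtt
DNM2: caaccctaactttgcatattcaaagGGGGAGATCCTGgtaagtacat
MON2: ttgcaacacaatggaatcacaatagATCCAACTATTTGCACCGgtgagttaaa
SLIT2: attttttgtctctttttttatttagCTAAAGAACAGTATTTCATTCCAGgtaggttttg
ACOT9: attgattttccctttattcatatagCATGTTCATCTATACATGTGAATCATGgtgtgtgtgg

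Each of these windows begins its exon after an AG and ends it before a GT. They lie at chr5:132706441-132706484 on the minus strand for KIF3A, where the exon is coding exon 11 of the MANE Select transcript, and at chr15:52348808-52348851 on the minus strand for MYO5A, exon 29. The PITPNA window is at chr17:1543010-1543052, minus strand, exon 5, and the PHB2 window at chr12:6965901-6965941, minus strand, exon 9. DNM2 is at chr19:10808544-10808590, plus strand, exon 14, and MON2 at chr12:62565989-62566041, plus strand, exon 28. SLIT2 is at chr4:20525124-20525182, plus strand, exon 15, and ACOT9 at chrX:23734331-23734392, minus strand, exon 3. All 8 exons are coding.

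A second set shows the 30-nt exon of each of 4 HMGN genes, which encode nucleosome-binding proteins, because the exons resemble each other and their levels can be compared.
HMGN1: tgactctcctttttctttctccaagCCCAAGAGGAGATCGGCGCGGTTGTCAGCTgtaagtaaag
HMGN2: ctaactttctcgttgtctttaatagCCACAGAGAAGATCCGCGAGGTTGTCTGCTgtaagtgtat
HMGN3: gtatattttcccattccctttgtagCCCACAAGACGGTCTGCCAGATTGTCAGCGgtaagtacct
HMGN5: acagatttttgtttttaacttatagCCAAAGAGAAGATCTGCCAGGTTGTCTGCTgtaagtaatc

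The HMGN windows are at chr21:39348412-39348476 on the minus strand (HMGN1, exon 3), chr1:26473678-26473742 on the plus strand (HMGN2, exon 3), chr6:79208537-79208601 on the minus strand (HMGN3, outside its MANE Select transcript) and chrX:81118720-81118784 on the minus strand (HMGN5, exon 4).

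The last set shows exons that rose upon SFSWAP knockdown, and the exon of SNRNP48, whose level differed between siNT and siNT/siUPF1.
ECSIT: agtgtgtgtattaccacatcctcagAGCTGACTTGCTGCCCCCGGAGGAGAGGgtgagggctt
GTF3C5: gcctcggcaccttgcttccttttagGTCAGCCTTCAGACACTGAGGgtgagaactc
AP1B1: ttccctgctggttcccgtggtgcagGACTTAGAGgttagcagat
SH3GLB2: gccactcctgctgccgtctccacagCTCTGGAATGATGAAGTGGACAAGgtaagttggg
SNRNP48: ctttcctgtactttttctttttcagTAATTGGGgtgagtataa

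The ECSIT window is at chr19:11507692-11507754, minus strand, and the GTF3C5 window at chr9:133054919-133054974, plus strand. AP1B1 is at chr22:29329702-29329745, minus strand, exon 22, and SH3GLB2 at chr9:129010660-129010718, minus strand, exon 7. SNRNP48 is at chr6:7599648-7599690, plus strand. The exons of ECSIT, GTF3C5 and SNRNP48 are coding in GENCODE 44 but are not in the MANE Select transcript.

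The 1716 microexons of the siNT and siSFSWAP table lay in 1345 genes at 1620 separate places, with a shortest length of 2 nt and a median of 23 nt. GENCODE 44 lists 658 of them (38.3%) with both edges, 566 as coding exons and 404 in a MANE Select transcript. Of the others, 659 share 1 edge with a listed exon and 398 share none. An AG stood before and a GT or GC after 1662 of the 1716 (96.9%). Lengths that are a multiple of 3 made up 61.7% of the listed microexons and 43.2% of the unlisted ones, beside 40.5% of listed exons of 31 nt or more. The 1685 microexons of the UPF1 knockdown table were alike in these respects, with 636 listed (37.7%) and a multiple of 3 at 61.9% of the listed and 39.2% of the unlisted.

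The measure used throughout is the inclusion level of an event, from 0 to 1. It is the share of the form with the exon among the forms with and without it, after reads of each are divided by its effective length. Where an exon shares 1 edge with another form, reads across that edge count for both. Levels of such exons are therefore not shares of all transcripts. Since the level is a share, fewer transcripts with the exon and more transcripts without it cannot be told apart. In siNT 711 microexons had a mean level under 0.1, 339 a level from 0.1 to 0.9 and 666 a level over 0.9. In siNT/siUPF1 the corresponding numbers were 737, 342 and 606. An exon was tested when the libraries compared held at least 10 inclusion and 10 skipping reads in all. This left 661 microexons (38.5%) for siSFSWAP against siNT, since 590 had too few inclusion and 465 too few skipping reads, and 665 (39.5%) in the UPF1 knockdown background. An exon near a level of 1 in the controls can pass this filter through skipping reads of the knockdown libraries, and longer exons passed it in the same way.

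Microexons that changed upon SFSWAP knockdown mostly lost inclusion. Of the 661 tested, 97 (14.7%) were lower and 34 (5.14%) higher in siSFSWAP than in siNT, at an adjusted p of at most 0.05 from a quasi-binomial test with the spread between libraries moderated by limma and Benjamini-Hochberg adjustment over all 33839 events. Among all events tested the balance was the opposite, with 4.25% lower and 7.86% higher (12.1% called in either direction). Exons of 31 nt or more were lower at 4.41% and higher at 7.68%. The median log2 odds ratio of inclusion, siSFSWAP over siNT, was -0.39 for the microexons and 0.23 for the longer exons. The 3 libraries of each group did not overlap at 230 of the 661 microexons (34.8%), 159 lower and 71 higher, where 26% of all events tested did not overlap (9.82% lower and 16.2% higher). The 97 falls were at 82 separate places in 80 genes, and some of these microexons overlap others and share reads with them. The 34 rises were at 34 places in 33 genes. Without the filter on reads, 86 of all 1716 microexons were lower and 30 higher, where 3419 of 115209 events of any length were called in either direction.

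GENCODE-listed microexons carried most of the falls. Of the 661 microexons tested 311 were listed, and of these 59 were lower and 11 higher. Of the 190 in a MANE Select transcript 48 were lower and 7 higher. Among 15593 listed exons of 31 nt or more, 4.62% were lower and 7.68% higher, beside 4.25% and 7.86% of all events. Of 350 members that GENCODE does not list, 38 were lower and 23 higher. Coding microexons with a length that is a multiple of 3 were lower at 41 and higher at 6 of 204, and coding microexons of other lengths were lower at 13 and higher at 5 of 62. Across the listed microexons tested, the median inclusion level of a library was 0.617, 0.662 and 0.663 in siNT and 0.544, 0.554 and 0.571 in siSFSWAP. Over all 661 microexons tested, listed or not, the siNT medians, at 0.725, 0.733 and 0.702, lay among the siSFSWAP medians of 0.697, 0.736 and 0.681, so the groups overlapped and a siSFSWAP library had the highest median of the 6.

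Values of single listed microexons that fell are given first. KIF3A, a kinesin motor of cilium transport, had its 9-nt exon at 0.409, 0.464 and 0.554 in siNT and at 0.214, 0.135 and 0.114 in siSFSWAP. All 3 siSFSWAP libraries were below all 3 siNT libraries, with a log2 odds ratio of -2.49 ± 0.45 (SE) and an adjusted p of 1.64e-07 (limma-moderated test). MYO5A, a myosin that carries vesicles along actin, had its 9-nt exon at 0.961, 0.692 and 0.739 in siNT and at 0.279, 0.443 and 0.297 in siSFSWAP. These groups were also apart, with a difference of -0.458 in inclusion level and an adjusted p of 0.000233. DNM2, the dynamin that cuts vesicles from membranes, had its 12-nt exon at 0.484, 0.491 and 0.506 in siNT and at 0.250, 0.222 and 0.255 in siSFSWAP. The spread within each group was narrow beside the difference of -0.251 (adjusted p 2.84e-14). MON2, a protein of Golgi and endosome traffic, showed the largest fall of a listed microexon, its 18-nt exon going from 0.944, 0.912 and 0.866 to 0.216, 0.414 and 0.477. The difference was -0.539, with an adjusted p of 3e-09.

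Further listed microexons fell, with differences from -0.393 to -0.197. ACOT9, a mitochondrial acyl-CoA thioesterase, had its 27-nt exon at 0.588, 0.632 and 0.725 in siNT and at 0.243, 0.287 and 0.237 in siSFSWAP. With a mean of 514 reads per library and no overlap, this was the lowest adjusted p of any microexon in the comparison (4.08e-44), for a log2 odds ratio of -2.49 ± 0.18 (SE). PTS, an enzyme of tetrahydrobiopterin synthesis, had its 23-nt exon 3 at 0.916, 0.887 and 0.952 in siNT and at 0.661, 0.728 and 0.540 in siSFSWAP. The groups were apart, with an adjusted p of 4.14e-17, and the length of this exon is not a multiple of 3. SLIT2, a secreted guidance protein, had its 24-nt exon 15 at 0.726, 0.674 and 0.655 in siNT and at 0.451, 0.473 and 0.437 in siSFSWAP, without overlap (adjusted p 8.32e-07). A second SLIT2 microexon, of 12 nt, overlapped between the groups (means of 0.210 and 0.149, adjusted p 0.526). PITPNA, a phosphatidylinositol transfer protein, had its 8-nt exon at 0.971, 0.947 and 0.932 in siNT and 0.731, 0.728 and 0.801 in siSFSWAP (adjusted p 0.000721), again with no library of either group inside the range of the other.

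The noncoding gene GAS5, which hosts small nucleolar RNAs in its introns, also lost microexons. Its 19-nt exon was at 0.883, 0.743 and 0.830 in siNT and at 0.383, 0.425 and 0.404 in siSFSWAP, and a 23-nt form of the same exon was at 0.979, 0.950 and 0.976 and then 0.827, 0.847 and 0.848. Both forms fell without overlap (adjusted p 7.3e-14 and 4.29e-18), and because they share 1 edge their reads are partly the same. A further GAS5 exon of 30 nt was included in every read of siNT, at 1.00 in all 3 libraries, and at 0.989, 0.995 and 0.994 in siSFSWAP (adjusted p 0.00323). It passed the filter through skipping reads of the siSFSWAP libraries alone, so these levels are a description. That exon overlapped between the groups with UPF1 depleted (means of 0.998 and 0.995, adjusted p 0.225), whereas the 19-nt exon fell there from 0.884, 0.812 and 0.815 to 0.427, 0.429 and 0.573 (adjusted p 1.72e-24).

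A group of called microexons had levels at or near 1.00 in siNT. Those with no skipping read in siNT passed the filter through their siSFSWAP libraries alone, so that they could be tested only because they were skipped there, and their levels are a description. NUP58, a nuclear pore protein, had its 25-nt exon 7 at 1.00 in all siNT libraries and at 0.885, 0.981 and 0.815 in siSFSWAP (adjusted p 1.69e-05). GRAMD1A, a cholesterol transfer protein, had its 21-nt exon 3 at 1.00, 1.00 and 0.995 in siNT and at 0.882, 0.868 and 0.90 in siSFSWAP (adjusted p 2.43e-08). Shorter and overlapping GRAMD1A forms of 18 and 14 nt, which GENCODE does not list, fell too (differences of -0.531 and -0.580, adjusted p 0.000633 and 6.38e-05). PHB2, a prohibitin of the inner mitochondrial membrane, had its 6-nt exon at 1.00, 0.998 and 0.999 in siNT and at 0.947, 0.978 and 0.935 in siSFSWAP (adjusted p 5.24e-11). ATP5B, the catalytic beta subunit of the mitochondrial ATP synthase, had a 12-nt coding exon at 0.973, 0.972 and 0.963 in siNT and at 0.731, 0.728 and 0.593 in siSFSWAP (adjusted p 5.08e-08). None of these groups overlapped. PHB2, ATP5B and the HMGN and ribosomal protein genes have processed copies elsewhere in the genome, so the placement of some of their reads is uncertain.

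Of the 38 unlisted microexons that fell, 36 share 1 edge with a listed exon, so they are other forms of known exons. Reads across the shared edge can come from the listed exon. Such levels therefore do not give the share of transcripts with the unlisted form. SERBP1, an mRNA-binding protein, had a 29-nt form at 0.993, 0.995 and 0.978 in siNT and at 0.812, 0.850 and 0.695 in siSFSWAP (adjusted p 2.12e-25). PCBP2, a poly(C)-binding protein, had a 23-nt form at 0.309, 0.309 and 0.288 and then 0.0884, 0.122 and 0.117 (adjusted p 2.32e-26). The 28-nt form in RPL17C18orf32, the RPL17 read-through locus, was at 0.993, 0.994 and 0.998 and then 0.863, 0.881 and 0.786 (adjusted p 1.58e-24). In each of the 3 genes the siSFSWAP libraries were all lower than the siNT libraries.

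**Figure D1:**
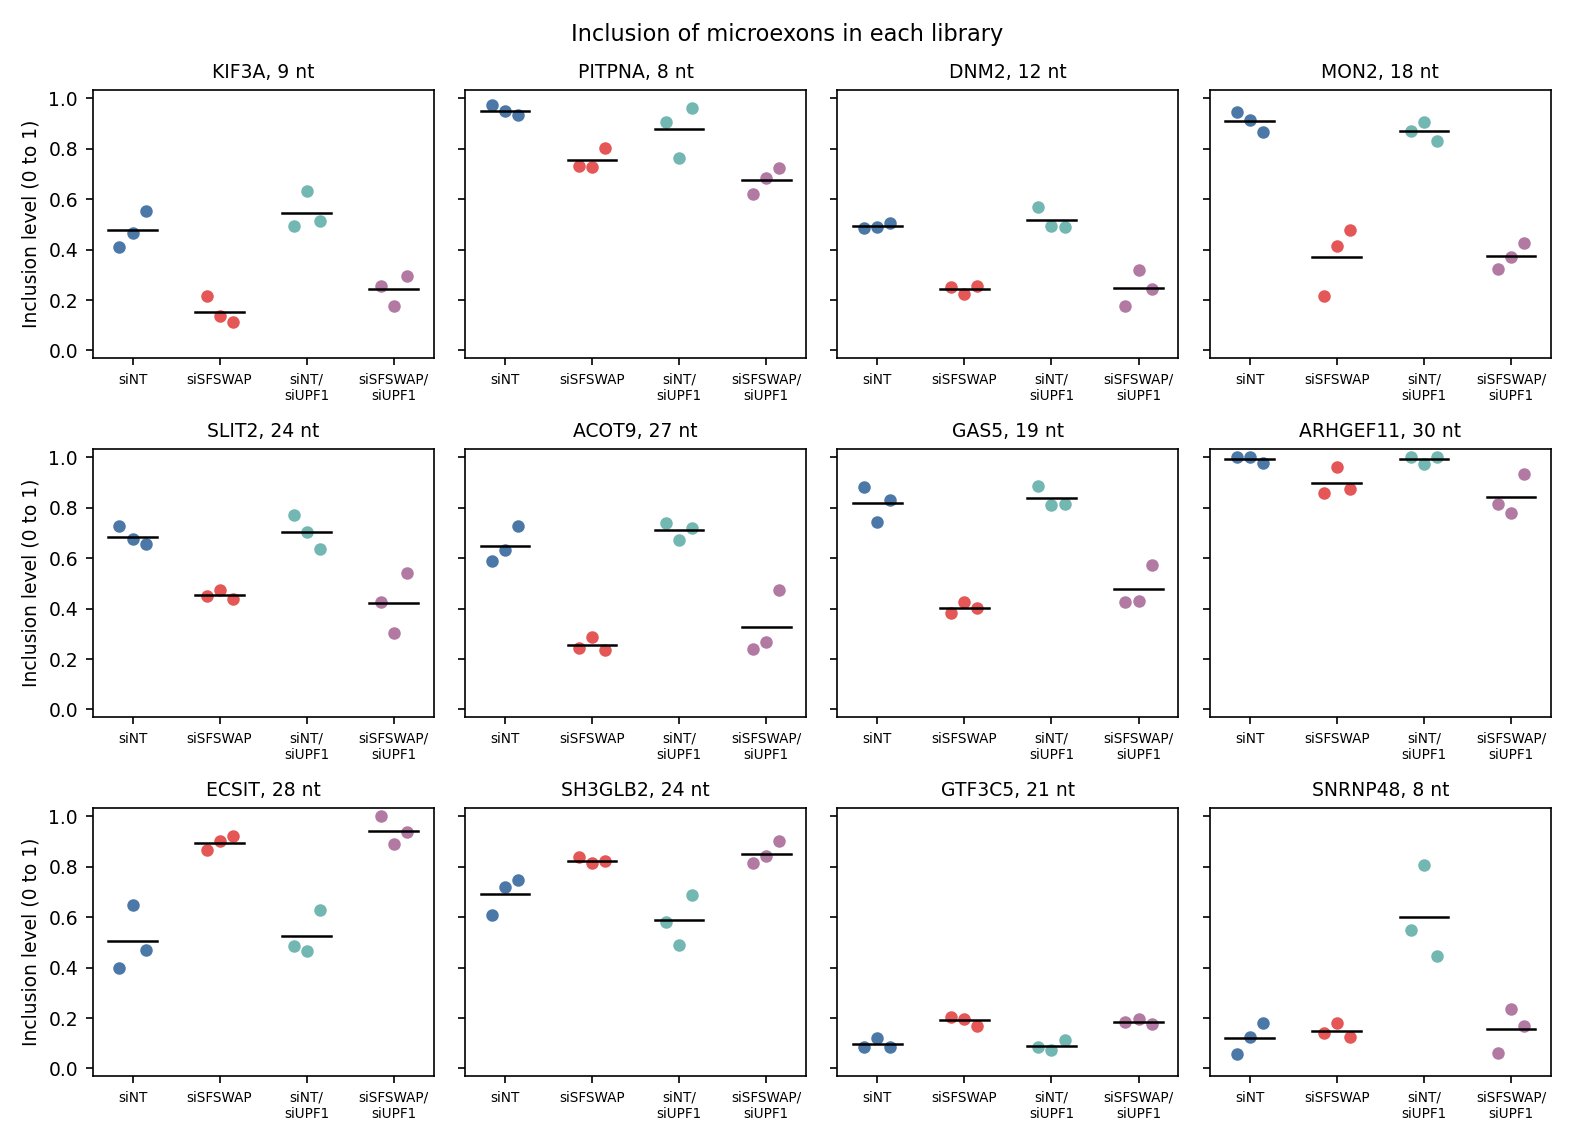
Inclusion level (0 to 1, vertical axis) of 12 GENCODE-listed microexons in each library of the 4 groups; each dot is 1 library and the line is the mean of 3. KIF3A, DNM2, MON2, SLIT2, ACOT9 and GAS5 lie lower in both groups with siSFSWAP, ECSIT and GTF3C5 lie higher, and SNRNP48 is high in siNT/siUPF1 with 0.549, 0.807 and 0.446.

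With normal UPF1 the share of exons that lost inclusion was higher in each microexon class than in any longer class, though the classes on either side of 30 nt were close. In siSFSWAP against siNT, 18% of microexons of 2 to 9 nt were lower, then 16% at 10 to 15 nt, 14.6% at 16 to 20 nt, 15.4% at 21 to 25 nt and 12.6% at 26 to 30 nt. Beyond the limit the shares were 11.3% at 31 to 40 nt, 9.94% at 41 to 60 nt, 5.36% at 61 to 100 nt, 3.00% at over 100 to 200 nt, 3.67% at over 200 to 300 nt and 3.08% above that. The share that gained inclusion stayed between 4.04% and 6.25% up to 60 nt and was 7.86% and 7.96% in the longer classes from 61 to 200 nt. Just inside the limit of the definition, at 29 or 30 nt, 15 of 104 exons were lower and 3 higher, and just outside, at 31 or 32 nt, 8 of 78 were lower and 1 higher. In the UPF1 knockdown background the shares that fell were 15.2%, 7.53%, 7.95%, 14.1% and 8.15% in the same 5 microexon classes, and 7.34%, 7.23%, 4.17% and 2.99% in the classes from 31 to 200 nt. These shares did not fall steadily with length, and microexons of 10 to 20 nt were close to exons of 31 to 60 nt. Microexons of 2 to 9 nt included 10 falls and no rise among 66 tested there.

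**Figure D2:**
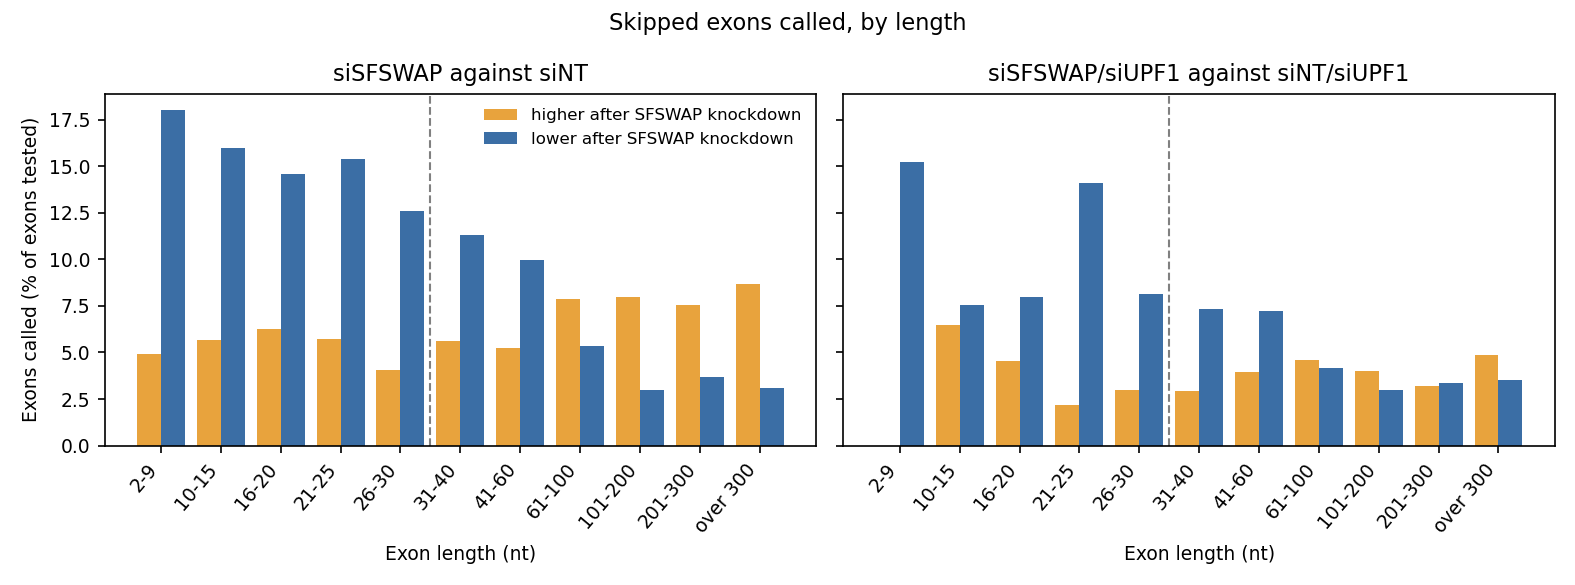
Percent of tested exons called higher (orange) or lower (blue) after SFSWAP knockdown, by exon length in nt, for siSFSWAP against siNT (left) and siSFSWAP/siUPF1 against siNT/siUPF1 (right); the dashed line marks the 30 nt limit. On the left the lower share goes from 18% at 2 to 9 nt to 3.00% at over 100 to 200 nt.

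Short and long exons of like control level were also set side by side. Because exons near a level of 1 pass the filter partly through skipping reads of the knockdown libraries, the shares below do not rank the control levels: counted over all 1716 microexons with levels read in siNT, 57 of 666 over 0.9 and 31 of 339 from 0.1 to 0.9 were lower. The level was taken from the control libraries of the other background, which do not enter the comparison. It could be read only at events with identical coordinates in both tables. From over 0.9 down to under 0.1 this left 160, 239 and 106 of the 661 microexons tested for siSFSWAP against siNT. With UPF1 depleted it left 163, 228 and 132 of 665. For siSFSWAP against siNT, exons with a level over 0.9 in siNT/siUPF1 were lower at 44 of 160 microexons (27.5%), at 18.4% of exons of 31 to 60 nt and at 5.98% of exons of 61 to 200 nt. At levels from 0.1 to 0.9 the shares were 11.7%, 8.03% and 3.15%, and under 0.1 they were 9.43%, 2.17% and 1.12%. For siSFSWAP/siUPF1 against siNT/siUPF1, with levels read in siNT, the shares over 0.9 were 22.7%, 12.1% and 4.45%, those from 0.1 to 0.9 were 8.33%, 6.59% and 3.01%, and those under 0.1 were 3.79%, 3.16% and 2.87%. Among the exons that could be tested, microexons had the highest share of falls in all 3 ranges of both comparisons. Under 0.1 in the UPF1 knockdown background the shares were close and rested on 5 microexons of 132. Over 0.9, exons of every length entered partly because the knockdown libraries skipped them. The shares over 0.9 are therefore a description, and shares over all longer exons, tested or not, were not taken.

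**Figure D3:**
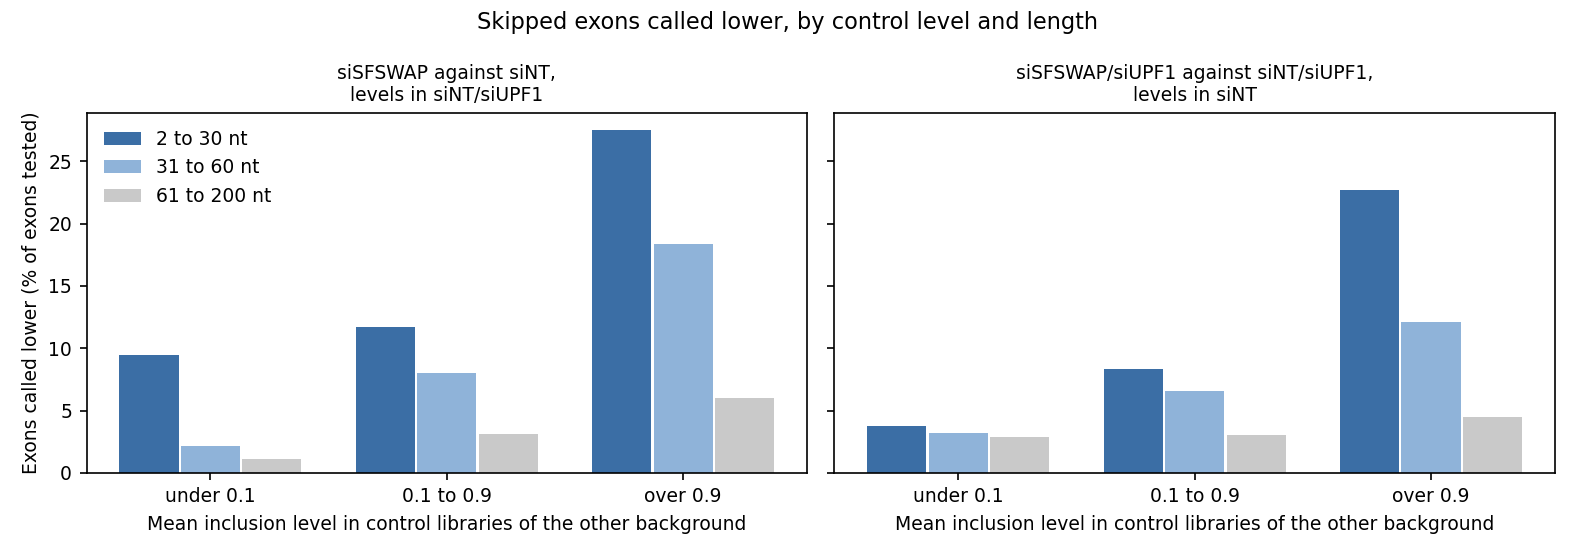
Percent of tested exons called lower after SFSWAP knockdown, by the mean inclusion level in the control libraries of the other background and by exon length (dark blue 2 to 30 nt, light blue 31 to 60 nt, grey 61 to 200 nt). Over 0.9 the bars stand at 27.5%, 18.4% and 5.98% on the left and at 22.7%, 12.1% and 4.45% on the right, where exons could be tested partly because the knockdown libraries skipped them.

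With UPF1 also depleted the same direction prevailed. Of 665 microexons tested between siSFSWAP/siUPF1 and siNT/siUPF1, 69 (10.4%) were lower and 21 (3.16%) higher, where 3.61% of all 34006 events tested were lower and 4.17% higher (7.78% called in either direction). The 69 falls were at 57 separate places in 54 genes, as some overlap and share reads, and the 21 rises at 21 places. Exons of 31 nt or more were lower at 3.8% and higher at 4.09%. The median log2 odds ratio was -0.32 for microexons and 0.04 for longer exons. The groups did not overlap at 199 of 664 microexons (30%), 135 lower and 64 higher, beside 21.6% of all events (9.94% lower and 11.7% higher). Listed microexons were lower at 42 and higher at 7 of 326, and those in MANE Select transcripts were lower at 28 and higher at 2 of 188. Listed exons of 31 nt or more were lower at 3.79% and higher at 4.28%. The median level of the listed microexons tested was 0.581, 0.553 and 0.60 in the siNT/siUPF1 libraries and 0.518, 0.511 and 0.569 in the siSFSWAP/siUPF1 libraries, and here the highest library of the knockdown group lay inside the range of the controls. Over all 665 microexons tested the medians, 0.632, 0.606 and 0.672 against 0.568, 0.555 and 0.644, overlapped as well.

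These 2 comparisons use separate libraries, so their calls can be set side by side. Of 434 microexons tested in both, 97 were called with normal UPF1 and 73 with UPF1 depleted, and 46 were called in both, which is 47.4% of the first list and 63.0% of the second. Of 19378 exons of 31 nt or more tested in both, 997 were called in both, which is 39.7% and 55.1% of their lists. Of these 46, 42 were lower in both and 4 higher in both, and none was called in opposite directions. The 42 lie at 37 places in 37 genes, and 30 of them are GENCODE-listed. Of 76 microexons called lower with normal UPF1, 74 had a negative difference with UPF1 depleted as well, and of 21 called higher, 19 had a positive one. Over all 434 microexons 336 had the same sign in both, and so had 13106 of the 19378 longer exons. Of the 997 longer exons called in both, 461 were lower in both and 528 higher in both.

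**Figure D4:**
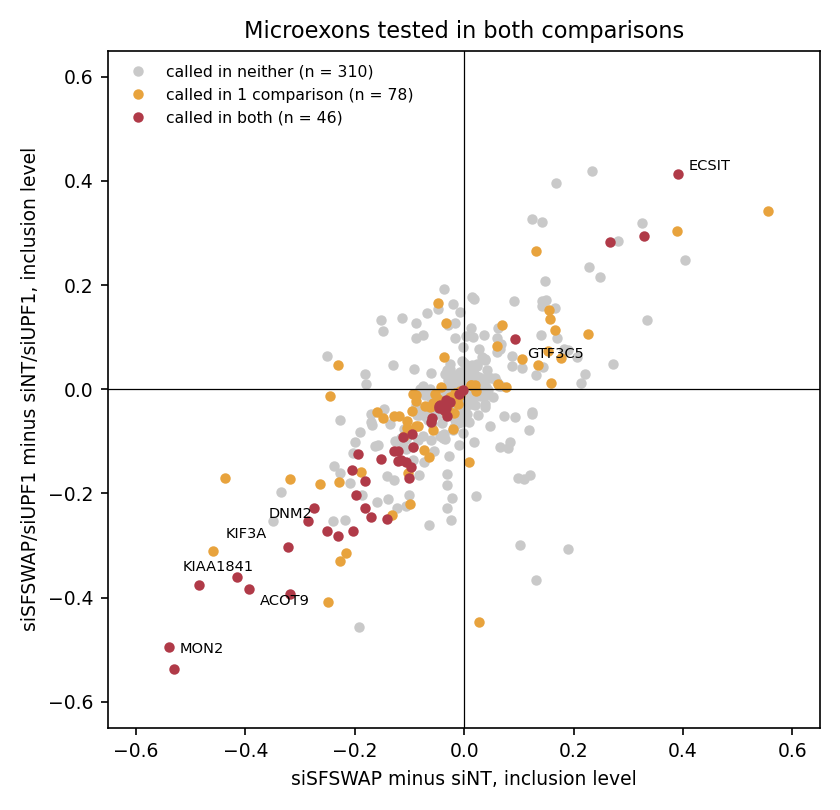
Difference in inclusion level upon SFSWAP knockdown for the 434 microexons tested in both comparisons, with normal UPF1 (horizontal axis) and with UPF1 depleted (vertical axis); grey points were called in neither (310), orange points in 1 comparison (78) and red points in both (46). The red points lie to the lower left (42) or the upper right (4) of the origin.

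Several microexons called in both had differences of like size in the 2 backgrounds. KIF3A went from 0.494, 0.632 and 0.513 in siNT/siUPF1 to 0.257, 0.177 and 0.297 in siSFSWAP/siUPF1, a difference of -0.302 beside -0.322 with normal UPF1 (adjusted p 0.000269). MON2 went from 0.869, 0.905 and 0.831 to 0.324, 0.371 and 0.425, a difference of -0.495 beside -0.539 (adjusted p 4.59e-09). DNM2 went from 0.569, 0.495 and 0.490 to 0.178, 0.319 and 0.243, a difference of -0.272 beside -0.251 (adjusted p 4.98e-10). The groups were apart for all 3 genes. ACOT9 went from 0.738, 0.672 and 0.720 to 0.240, 0.266 and 0.475, and SLIT2 from 0.771, 0.704 and 0.637 to 0.426, 0.303 and 0.542. Both were without overlap (adjusted p 1.59e-23 for ACOT9 and 2.12e-08 for SLIT2), though in each the siSFSWAP/siUPF1 library listed 3rd was closest to the controls. MYO5A, by contrast, went from 0.762, 0.760 and 0.467 to 0.303, 0.252 and 0.506, with overlapping groups and an adjusted p of 0.0544.

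Other microexons lower in both comparisons had smaller or less steady differences. KIAA1841 had its 29-nt exon 18 at 0.942, 1.00 and 0.886 in siNT and at 0.392, 0.407 and 0.575 in siSFSWAP, and the mean fell from 0.901 to 0.525 with UPF1 depleted (adjusted p 0.00408 and 0.0272). It rested on 25.5 and 28 reads per library, and with UPF1 depleted its call was kept in 2 of 6 fits that each left out 1 library. PITPNA had a mean of 0.876 in siNT/siUPF1 and 0.674 in siSFSWAP/siUPF1, without overlap (adjusted p 0.0395), kept in 1 of 6 such fits. SNX14, a sorting nexin, had its 27-nt exon at means of 0.291 and 0.0868, and of 0.258 and 0.104 with UPF1 depleted (adjusted p 0.000597 and 0.00810), but its siNT libraries ranged from 0.130 to 0.433. The first of these calls was lost without the siNT library listed 1st, and the second was kept in 3 of 6 fits. ARHGEF11, a signalling protein, had its 30-nt exon 21 at 1.00, 1.00 and 0.978 in siNT and at 0.856, 0.960 and 0.872 in siSFSWAP, and at 1.00, 0.973 and 1.00 and then 0.814, 0.778 and 0.933 with UPF1 depleted (adjusted p 0.00756 and 0.000381). The first ARHGEF11 call was lost without the siNT library listed 2nd or the siSFSWAP library listed 1st. A second ARHGEF11 microexon, of 24 nt, was lower in siSFSWAP without overlap but missed the threshold (means of 0.989 and 0.920, adjusted p 0.135). RPS24, a ribosomal protein, had its 3-nt exon at mean levels of 0.00238 in siNT and 0.000974 in siSFSWAP, and of 0.00243 and 0.000649 with UPF1 depleted (adjusted p 0.0284 and 0.00194), on 12520 and 12409 reads per library.

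The remaining microexons called lower in both belong to genes of several kinds. They include the mitochondrial proteins LRPPRC and IMMT, the transcription elongation factor SUPT5H (forms of 12 and 14 nt), the RNA-binding protein DAZAP1, the general transcription factor GTF2I, the ubiquitin ligases RCHY1 and TRIM35, the cilium protein TRAF3IP1, the lysosomal protein PSAP, the export factor CSE1L, the formin DIAPH2, HSD17B4, DEK and UQCRH. Their differences in siSFSWAP against siNT ran from -0.318 for DIAPH2 to -0.00954 for UQCRH, and with UPF1 depleted from -0.393 for DIAPH2 to -0.00988 for UQCRH. PSAP, with UPF1 at its normal level, and LRPPRC, with UPF1 depleted, had overlapping groups. Many of these calls were lost when 1 library was left out: with UPF1 depleted, those of UQCRH and IMMT were kept in 1 of 6 fits, that of TRAF3IP1 in 1 of 5, that of GTF2I in 2 of 6 and that of DAZAP1 in 3 of 6. With normal UPF1, IMMT and TRAF3IP1 were kept in 2 of 6 and DIAPH2 and TRIM35 in 3 of 6.

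Members of the HMGN family, whose values were looked at together after they had been seen, differed in how far the 30-nt exon fell. HMGN1 had its exon at 1.00 in all siNT libraries and at 0.954, 0.985 and 0.959 in siSFSWAP, and at 1.00, 0.997 and 1.00 and then 0.955, 0.955 and 0.982 with UPF1 depleted (adjusted p 1.75e-07 and 3.93e-05). HMGN3 went from 0.984, 0.996 and 1.00 to 0.967, 0.960 and 0.958, and from 0.997, 0.995 and 0.996 to 0.932, 0.938 and 0.965 (adjusted p 6.05e-06 and 1.64e-10). HMGN5 stood at 1.00 in all 6 control libraries, at 0.912, 0.946 and 0.841 in siSFSWAP and at 0.662, 0.937 and 0.891 in siSFSWAP/siUPF1 (adjusted p 0.0214 and 0.0161). None of these groups overlapped, but on 59.0 and 60.2 reads per library the HMGN5 calls were kept in 2 and 3 of the 5 fits that could be made with 1 library left out. With controls at 1.00, HMGN1 in siSFSWAP against siNT and HMGN5 in both comparisons passed the filter through skipping reads of the knockdown libraries alone. Their levels there are therefore a description. HMGN2 had its exon at 0.998, 0.999 and 0.998 in siNT and 0.997, 0.997 and 0.993 in siSFSWAP, a difference of -0.00226 on 9085 reads per library that missed the threshold (adjusted p 0.0655, and 0.0557 with UPF1 depleted). The exons printed above are alike at 63.3% to 90.0% of their 30 positions, and the most alike pair, HMGN2 with HMGN5 at 27 of 30, held the smallest and the largest of these differences. A second 30-nt exon of HMGN5, exon 3, overlapped between groups (means of 0.907 and 0.934, adjusted p 0.930). Counting shorter and overlapping forms, 11 HMGN microexons were tested with normal UPF1, of which 5 were lower and none higher, and 10 with UPF1 depleted, of which 7 were lower and none higher. Several of these forms overlap and share reads, and 4.25% and 3.61% of all events, and 14.7% and 10.4% of microexons, were lower in these comparisons.

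**Figure D5:**
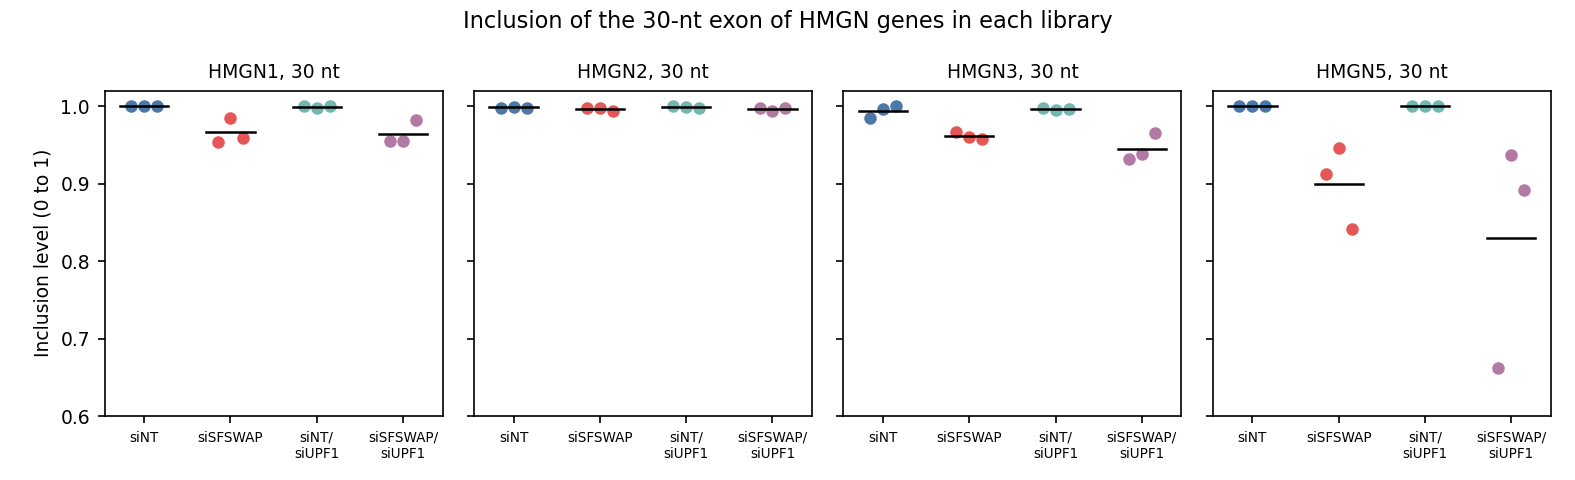
Inclusion level of the 30-nt exon of HMGN1, HMGN2, HMGN3 and HMGN5 in each library (dots) with the mean of 3 (line); the vertical axis starts at 0.6. The exon is at or near 1.00 in the control libraries of all 4 genes, and HMGN5 reaches 0.662 in a siSFSWAP/siUPF1 library while HMGN2 stays at 0.993 or above.

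Rises were fewer, and 4 were called in both comparisons. ECSIT, an adaptor of Toll signalling and complex I assembly, had a 28-nt exon at 0.397, 0.647 and 0.469 in siNT and at 0.865, 0.90 and 0.920 in siSFSWAP, and at 0.486, 0.467 and 0.626 and then 1.00, 0.888 and 0.935 with UPF1 depleted. Every library with siSFSWAP was above every control, with differences of 0.391 and 0.414 (adjusted p 2.1e-10 and 8.42e-06). GTF3C5, a subunit of the RNA polymerase III factor TFIIIC, had a 21-nt exon at 0.0859, 0.122 and 0.0862 in siNT and at 0.205, 0.197 and 0.170 in siSFSWAP. With UPF1 depleted it went from 0.0843, 0.0729 and 0.112 to 0.185, 0.195 and 0.176, again without overlap (adjusted p 0.00039 and 0.00305), though the second GTF3C5 call was lost without the siNT/siUPF1 library listed 2nd. The other 2 are unlisted forms in SRRT, a cap-binding complex partner (26 nt, differences of 0.267 and 0.282 with a spread of 0.293 to 0.624 in siSFSWAP), and in C20orf27 (15 nt, 0.328 and 0.295). Both lost the call with normal UPF1 without the siSFSWAP library listed 1st, and with UPF1 depleted each was kept in 3 of 6 fits.

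Several rises were called in a single comparison. CACNA1H, a T-type calcium channel, had its 18-nt exon 26 at 0.266, 0.346 and 0.304 in siNT and at 0.658, 0.608 and 0.821 in siSFSWAP (adjusted p 0.000495). With UPF1 depleted it went from a mean of 0.459 to 0.764, without overlap but short of the threshold (adjusted p 0.0702). AP1B1, the beta subunit of the AP-1 clathrin adaptor, had its 9-nt exon 22 at 0.241, 0.227 and 0.316 and then 0.410, 0.419 and 0.453 (adjusted p 0.00134), and the groups overlapped with UPF1 depleted (adjusted p 0.274). SH3GLB2, endophilin B2, had its 24-nt exon 7 at 0.581, 0.489 and 0.689 in siNT/siUPF1 and at 0.813, 0.841 and 0.90 in siSFSWAP/siUPF1 (adjusted p 0.000404), and without UPF1 depletion at 0.607, 0.720 and 0.746 and then 0.836, 0.813 and 0.821 (adjusted p 0.0533). POLD2, a DNA polymerase delta subunit, had a 28-nt exon at 0.501, 0.192 and 0.711 in siNT/siUPF1 and at 0.921, 0.886 and 0.856 in siSFSWAP/siUPF1 (adjusted p 2.78e-06), a call lost without the siNT/siUPF1 library listed 2nd. That a call was made in only 1 of the comparisons does not show a difference between them.

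Exons of at most 9 nt were looked at separately. With at least 20 reads per library in both tables there were 70 microexons of at most 9 nt, 35 of them GENCODE-listed, and 44 could be tested in each comparison. With normal UPF1, 10 were lower and 3 higher, the rises being AP1B1, an unlisted 9-nt form in HSPA9 and an unlisted 8-nt form in RPL13A, whose call was kept in 1 of 6 fits. With UPF1 depleted, 9 were lower and none higher. Among all events 4.25% were lower and 7.86% higher with normal UPF1, and 3.61% and 4.17% with UPF1 depleted. Falls in both comparisons were seen in KIF3A, PITPNA, PHB2, PSAP, RPS24 and an unlisted 6-nt form of HMGN2. The PSAP call with UPF1 depleted (adjusted p 0.0474) was lost whichever library was left out, and the RPS24 call with normal UPF1 was kept in 3 of 6 fits. ASXL1, a chromatin regulator, had its 3-nt exon at 0.867, 0.897 and 0.850 in siNT and at 0.792, 0.795 and 0.711 in siSFSWAP (adjusted p 0.0431), and at means of 0.839 and 0.764 with UPF1 depleted (adjusted p 0.337). PTK2, focal adhesion kinase, had its 9-nt exon 33 at 0.0940, 0.117 and 0.0822 in siNT and at 0.0215, 0.00456 and 0.00357 in siSFSWAP (adjusted p 1.42e-05). The call of ASXL1 was lost whichever library was left out, and that of PTK2 was kept in all 6 fits.

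Other very short exons did not pass the test. AP2M1, the medium subunit of the AP-2 clathrin adaptor, had its 6-nt exon 5 at 0.269, 0.471 and 0.208 in siNT and at 0.581, 0.642 and 0.571 in siSFSWAP, and at 0.298, 0.213 and 0.370 and then 0.524, 0.543 and 0.669 with UPF1 depleted. Its groups were apart in both comparisons by 0.282 and 0.285, yet its spread on 1011 and 1038 reads per library was wide for a binomial count and its adjusted p was 0.145 and 0.0859. AP1G1, a gamma subunit of AP-1, and MAP4K4, a kinase, each had a 9-nt exon with overlapping groups (means of 0.300 and 0.275 for AP1G1, adjusted p 0.996, and of 0.258 and 0.233 for MAP4K4, adjusted p 0.979). The 9-nt exon 18 of DIAPH1, a formin, had means of 0.995 and 0.976 without overlap (adjusted p 0.126). NCAM1, a neural adhesion molecule, had a 3-nt exon at means of 0.874 and 0.799 (adjusted p 0.370).

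Lists of genes known for microexons were read in the same fit, where 12.1% of all events were called with normal UPF1 and 7.78% with UPF1 depleted. Vesicle traffic and endocytosis had 15 microexons tested, none higher and 3 lower (DNM2, EXOC1 and SNX14), and with UPF1 depleted 14 tested, 1 higher (SH3GLB2) and 3 lower (DNM2, PICALM and SNX14). Cytoskeleton and adhesion had 30 tested, none higher and 3 lower (DST, MACF1 and MYO5A), and 26 tested with none called when UPF1 was depleted. Signalling and GTPases had 13 tested with 2 lower (ARHGEF11 and PTK2) and 17 tested with 1 lower (ARHGEF11). Chromatin and transcription had 4 tested with ASXL1 lower and 5 tested with none called, and RNA and translation had 3 tested with none called and 7 tested with EIF4G3 higher and RBM39 lower. The median log2 odds ratios of these lists in siSFSWAP against siNT were -0.05, -0.76, -1.24, -0.63 and 0.48 in the order given, and with UPF1 depleted 0.03, -0.73, 0.04, -0.46 and 0.54, so that the list of signalling and GTPases, lowest in the first comparison, was near 0 in the second. DST and MACF1 link actin to microtubules: the 18-nt exon of DST had means of 0.630 and 0.402 (adjusted p 0.0352, kept in 1 of 6 fits), and that of MACF1 means of 0.101 and 0.00634 (adjusted p 0.000467). A list of 19 splicing regulators was read for exons of any length. Events could be tested in 11 of these genes with normal UPF1 and in 10 with UPF1 depleted. SRRM4 and the RBFOX and NOVA genes on the list had none. With normal UPF1 17 of 111 events were higher and 9 lower, where 7.86% and 4.25% of all events were. With UPF1 depleted 5 of 98 were higher and 20 lower, beside 4.17% and 3.61% of all events. Events of the same gene can share reads.

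Sequence and intron features were described for the microexons that fell and those that rose. In siSFSWAP against siNT, the 97 that fell had a median GC content of 44.4%, the 34 that rose 51.7% and the 530 not called 46.7%. The introns before and after had median lengths of 894 and 1033 nt for those that fell, 369 and 352 nt for those that rose, and 1262 and 1178 nt for those not called. Both introns were under 1000 nt at 33%, 76.5% and 29.2% of them. Longer exons showed GC contents in the same order, with 43.6% for those that fell, 57.6% for those that rose and 49.2% for all tested. Their introns had medians of 1101 and 918 nt (fell), 568 and 482 nt (rose) and 1812 and 1816 nt (not called). Both introns were under 1000 nt at 30.0%, 46.1% and 18.7% of these longer exons. With UPF1 depleted the microexons that fell had a median GC content of 45.0% and those that rose 50%, and both introns were under 1000 nt at 37.7% and 57.1%. These are descriptions and were not tested.

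The letters TGC, part of the site that SRRM4 uses, were searched on the sense strand in the 30 nt before the exon, and TGCATG, the RBFOX motif, in the 100 nt after it. TGC occurred before 37.1% of microexons that fell, 50% of those that rose and 41.3% of all microexons tested, beside 38.6% of longer exons. TGCATG, which itself contains TGC, occurred after 7.22%, 8.82% and 4.99%, beside 3.18% of longer exons. With UPF1 depleted TGC preceded 26.1% of those that fell and 52.4% of those that rose, and TGCATG followed 4.35% and 9.52%. A match of letters does not show that a factor binds there.

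Few microexons differed upon siUPF1 without siSFSWAP. SFSWAP reads were also fewer in siNT/siUPF1 (66.2 to 80.8 RPM, beside 114 to 127 in siNT). Effects of UPF1 and of SFSWAP therefore cannot be told apart in this comparison. Between siNT/siUPF1 and siNT, 475 microexons with identical events in both tables were tested, and 4 were higher and 4 lower (1.68%), where 1.82% of all 28261 events were called (1.21% higher and 0.612% lower). SNRNP48, a protein of the minor spliceosome, had its 8-nt exon at 0.0581, 0.125 and 0.180 in siNT and at 0.549, 0.807 and 0.446 in siNT/siUPF1. The groups were far apart, with a difference of 0.480 (adjusted p 0.000212), and the length is not a multiple of 3. In siSFSWAP the same exon was at 0.140, 0.182 and 0.123, overlapping siNT, and in siSFSWAP/siUPF1 at 0.0620, 0.236 and 0.167, all below the siNT/siUPF1 libraries (adjusted p 1.2e-05). GPX4, the peroxidase that protects membrane lipids, had its 25-nt exon 5 at 0.958, 0.983 and 0.967 in siNT and at 0.993, 0.986 and 0.999 in siNT/siUPF1 (adjusted p 3.6e-06). The other rises were an unlisted form in HSPA9 and a 24-nt exon of PICALM, whose groups overlapped.

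CUTC, a protein of copper handling, had its 28-nt exon 7 at 0.766, 0.680 and 0.785 in siNT and at 0.416, 0.538 and 0.513 in siNT/siUPF1 (adjusted p 0.00136). It was also lower in siSFSWAP than in siNT, at 0.490, 0.530 and 0.519 (adjusted p 0.00220). PPP2R2D, a regulatory subunit of protein phosphatase 2A, had its 30-nt exon at 0.780, 0.706 and 0.704 in siNT and at 0.457, 0.454 and 0.494 in siNT/siUPF1 (adjusted p 0.0179). No siNT/siUPF1 library of either gene reached the siNT range, and the comparisons of siNT/siUPF1 and of siSFSWAP use the same siNT libraries. Both CUTC calls were lost without the siNT library listed 3rd, and the PPP2R2D call was kept in 1 of 6 fits. The other falls were PTK2, at means of 0.0979 and 0.0281, and RRP1, a ribosome assembly factor whose groups overlapped. By limma on the log2 odds none of the 8 was called, and 54 of the 475 had an unadjusted p under 0.05.

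Between siSFSWAP/siUPF1 and siSFSWAP none of 508 microexons was called by the limma-moderated test, 26 had an unadjusted p under 0.05, and limma on the log2 odds called none either. Among all 25748 events 15 were called (0.0583%). A direct test of whether the effect of siSFSWAP depends on UPF1 was made over all 12 libraries by the same moderated test, and none of 688 microexons passed, with 27 at an unadjusted p under 0.05. Among all 38928 events 14 passed (0.036%). The lowest p belonged to GPX4, for which the log2 odds ratio of siSFSWAP was lower by 2.04 ± 0.55 (SE) with UPF1 depleted (written -2.04, adjusted p 0.193), and SNRNP48 had a difference of -3.21 ± 1.05 (SE, adjusted p 0.750). No microexon was therefore shown to respond to SFSWAP knockdown differently in the 2 backgrounds, and with intervals this wide sizeable differences could have been missed.

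The test borrows the spread between libraries across events, and the calls depend on that. Of the 97 falls with normal UPF1, 47 were called in every fit that left out 1 library and 39 by limma on the log2 odds, and of the 34 rises 13 and 6. With UPF1 depleted 31 of 69 falls and 5 of 21 rises were called in every such fit, and 10 and none by limma. Of the members described, MON2, GRAMD1A, PHB2, ATP5B, GAS5 (19 and 23 nt), SERBP1 and ECSIT were called by limma on the log2 odds in siSFSWAP against siNT, and MYO5A (adjusted p 0.0861), PCBP2 (0.0972), HMGN3 (0.107), SNX14 (0.167), CACNA1H (0.0909), AP1B1 (0.326), KIF3A (0.0757), PITPNA (0.0543), PTS (0.0531), DNM2 (0.135), SLIT2 (0.197) and GTF3C5 (0.299) were among those that were not. NUP58 and HMGN1 were called by limma too. They passed the filter through skipping reads of the siSFSWAP libraries alone, so these calls add no support.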

How the data were processed

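PolyA RNA from 4 groups of 3 libraries was analysed, grouped from the labels. The authors trimmed reads with cutadapt 1.9.1, aligned them with STAR 2.7 to GRCh38.p8 (submitters' processing notes) and ran rMATS. The deposited read counts are inclusion and skipping reads per event, raw, and each cell strings together a group's 3 libraries with no replicate numbers; the deposited effective length of each form is a score that scales them. Which side of a table is which group came from the paper's definition of the inclusion difference. The authors' own comparison columns (p-values, FDR, inclusion levels and differences) and the intron tables were not used.

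Inclusion levels were recomputed from reads and lengths. Events that averaged 10 or more reads a library and held 10 or more inclusion and 10 or more skipping reads were fitted by quasi-binomial regression, the dispersion moderated robustly across all events with limma 3.58.1 (R 4.3.3) and floored at 1. The prior dispersion was 2.47 for siSFSWAP against siNT and 2.76 with UPF1 depleted, and for most events it replaced their own. The tests are two-sided F tests (for the difference between backgrounds, its estimate over its moderated error), adjusted by Benjamini-Hochberg at 0.05. Log2 odds ratios add 0.5 reads to each sum. With 3 libraries a group, the smallest exact permutation p is 0.1. UPF1 comparisons join events of identical coordinates from 2 rMATS runs. The labels call the libraries replicates, and the paper describes replicates as separately passaged cells. The p-values rest on read counts and on a spread between libraries that for most exons was pooled across events. No 2 libraries of a group were identical.

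Exons were compared with GENCODE 44 and sequences read from GRCh38 with pysam 0.24.0. The fit was run on simulated reads whose spread came from the same distribution for all events. That run cannot show how it treats exons with an outlying spread. Named microexons were the 10 largest rises and falls of each SFSWAP comparison (called, at least 20 reads, no overlap), those called in both, the 5 largest of each UPF1 comparison, those of at most 9 nt, and 3 of each gene list; others were named after their values were seen. The microexons and lists were chosen with earlier results of these data known. Alternatives were other moderation, limma on log2 odds, other filters and limits, and leaving out each library.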

Additional observations from a re-analysis of the deposited data

How the results depend on the processing

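For siSFSWAP against siNT (131 microexons called) the count was 0 when each event kept its own dispersion, 47 by limma on log2 odds with 0.5 reads added and 70 with 1 read added, and 77 with a required difference of at least 0.1. Leaving out 1 library gave 91 to 119. With UPF1 depleted (90 called) the counts were 0, 11 and 25 under the first 3 of these, and 57 to 95 when leaving out 1 library, with 57 without the siSFSWAP/siUPF1 library listed 1st. For siNT/siUPF1 against siNT (8 called) they were 5 without robust moderation, 0 with own dispersion, 0 by limma with either addition, 5 with the required difference and 3 to 10 when leaving out 1 library, with 3 without the siNT library listed 1st. For siSFSWAP/siUPF1 against siSFSWAP (0 called) they were 1 without robust moderation and 0 to 2 when leaving out 1 library. The difference between backgrounds stayed at 0 under every alternative run, and limma was not run for it. With own dispersion no event of any length was called, although 136 and 110 microexons had an unadjusted p under 0.05 in the SFSWAP comparisons; that fit has few degrees of freedom. No paired analysis was possible because the joined cells carry no replicate numbers. Over 131 named calls and 2088 alternative fits, 1602 kept the call, 486 lost it with the same direction and none reversed. In every alternative with calls in the SFSWAP comparisons, more microexons fell than rose. Of the 1716 microexons, 1055 had too few inclusion or skipping reads to be tested, which levels near 0 or 1 and depth can both give.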
